A study of Mus musculus with 2 samples.

Results

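The 10 genes described here encode cytokines of the IL-6 and IL-12 families and a receptor chain of each family, measured in leukocytes sorted from mouse melanomas. They were chosen by symbol, with earlier results of these data known, and are 10 of the 32285 genes listed in the deposited count tables. Il6, Osm and Lif encode the IL-6 family ligands interleukin-6, oncostatin M and leukaemia inhibitory factor. Il12a, Il12b, Il23a, Il27 and Ebi3 encode the subunits from which the IL-12 family is assembled. Il6ra encodes the ligand-binding chain of the IL-6 receptor, and Il12rb2 encodes the chain that makes the IL-12 receptor signal.

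IL-12 family cytokines are pairs of subunits that cells combine in more than a single way. The Il12b product pairs with the Il12a product to form IL-12 or with the Il23a product to form IL-23, while the Ebi3 product pairs with the Il27 product to form IL-27. IL-12 is known as a dendritic-cell and macrophage cytokine that drives interferon-gamma production by NK and T cells through Stat4, and IL-23 sustains lymphocytes that make IL-17. IL-6, oncostatin M and leukaemia inhibitory factor signal through the shared receptor chain encoded by Il6st and through Stat3.

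From tumours of B16F10, a transplantable mouse melanoma line, CD45-positive leukocytes were sorted for 10x Genomics single-cell RNA sequencing. The control library came from tumours of the group that received untreated bone-marrow-derived macrophages (BMDMs), and the IL4 library from the group that received BMDMs treated with interleukin-4. Both libraries carry the genotype label WT, and the age and number of animals behind each are not given in the labels. A separate protocol field names IL-4-treated BMDMs for both libraries, so the grouping rests on the treatment label. Transferred and host macrophages could not be told apart in the files. With 1 library per group there is no replicate and no test: every difference below is between these libraries, and the 95% intervals cover counting error only, although UMIs (unique molecular identifiers, each a captured RNA molecule) of 1 barcode are not independent.

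The control library held 8994 barcodes and 95499107 UMIs and the IL4 library 13873 barcodes and 133151428 UMIs. After filtering, 8937 and 13762 barcodes remained, with 23 barcode sequences occurring in both libraries. Barcodes were clustered with the 10 genes and 45 related genes kept out of the clustering, and clusters were named from marker lists. Among barcodes that carried UMIs either of Xist or of Y-linked genes but not of both, 36.8% of the control and 10.9% of the IL4 library were of the Y-linked kind. Both kinds are therefore given separately where a result turned on them. Levels are counts per 1000000 UMIs of the class (CPM), and ratios are log2 of (CPM + 1) in the IL4 library over the control library.

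**Figure D1:**
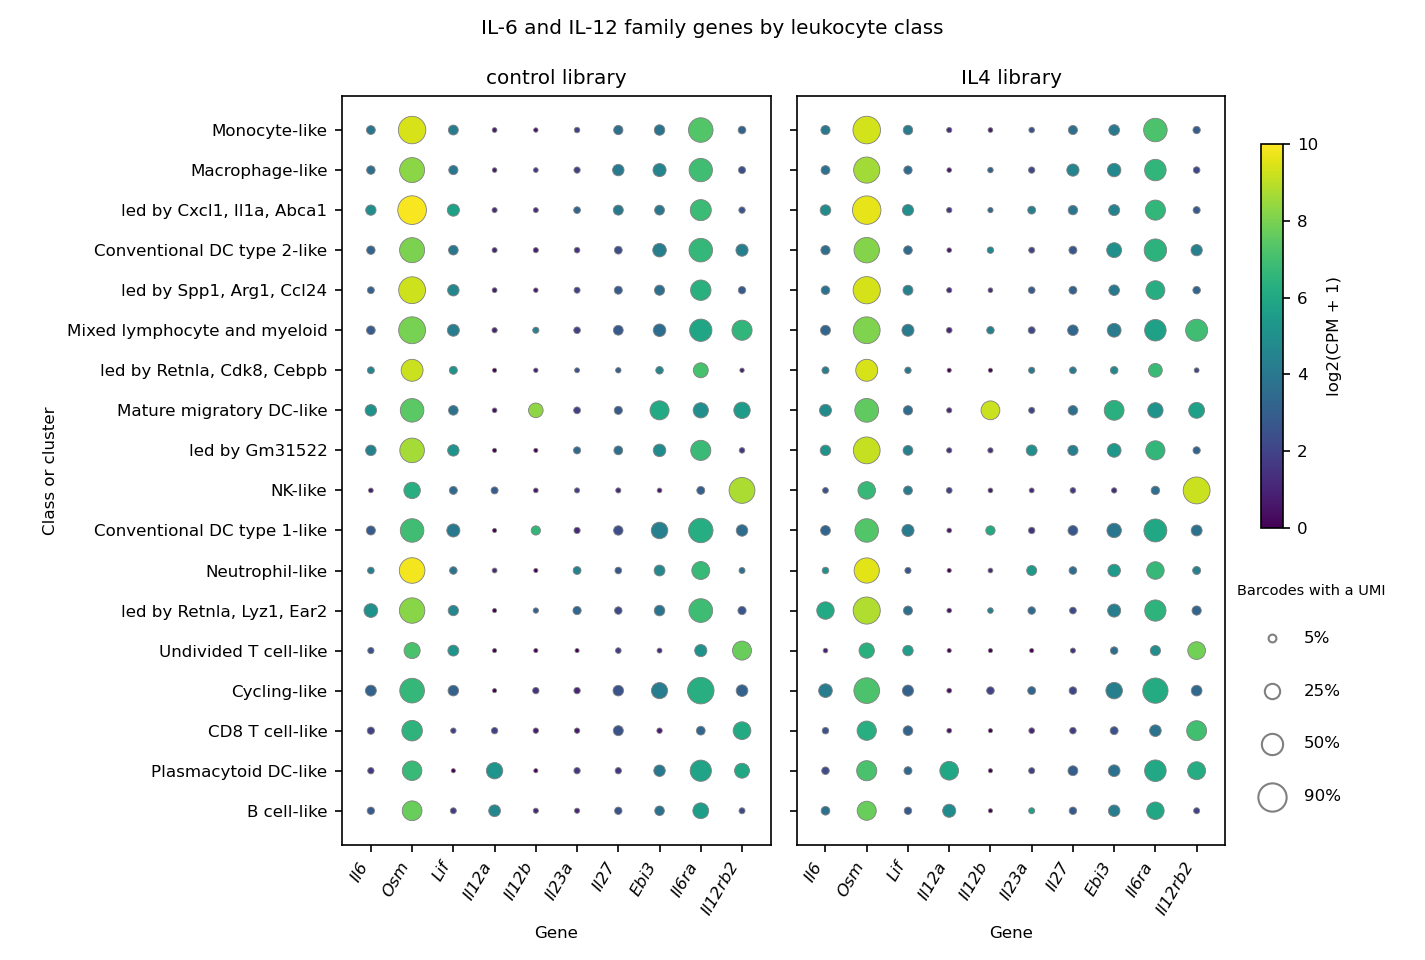
Level and detection of the 10 genes in 18 classes or clusters of each library. Colour is log2(CPM + 1) and dot area the percent of barcodes with a UMI; Il12b is highest in the mature migratory DC-like class and Il12rb2 in the NK-like class of both libraries.

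Il12b, which encodes the subunit shared by IL-12 and IL-23, was concentrated in the mature migratory DC-like class, dendritic cells (DCs) that carried Ccr7, Fscn1 and Ccl22. This class summed to 9120 CPM of its 12 markers in the control against 9072 CPM in the IL4 library. Il12b reached 312 CPM (95% interval 297 to 328, 1596 UMIs) there in the control library and 582 CPM (565 to 599, 4696 UMIs) in the IL4 library. The IL4 value was higher and the intervals did not overlap, a ratio of 0.90 on the log2 scale and a fold of 1.87 (1.76 to 1.98). The class held 67.5% of all Il12b UMIs of the control library and 74.6% of those of the IL4 library, although it held 5.37% and 6.07% of all UMIs. Il12b was also among the 10 leading genes of this cluster, from whose construction it had been kept out.

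The Il12b gene lies at chr11:44400063-44414033 on the plus strand (mm10, GENCODE vM21), and Ebi3, the other subunit gene that was highest in the mature migratory DC-like class, lies at chr17:55952640-55957022 on the plus strand. Their 250 bases before the RefSeq start site (GRCm38.p6) are shown because both genes peaked in the same class. The Il12b window is chr11:44399813-44400062 and the Ebi3 window chr17:55952373-55952622, both on the plus strand. Capitals mark matches to the TATA box TATANA in Il12b and to the NF-kB consensus in Ebi3, searched on both strands.
Il12b: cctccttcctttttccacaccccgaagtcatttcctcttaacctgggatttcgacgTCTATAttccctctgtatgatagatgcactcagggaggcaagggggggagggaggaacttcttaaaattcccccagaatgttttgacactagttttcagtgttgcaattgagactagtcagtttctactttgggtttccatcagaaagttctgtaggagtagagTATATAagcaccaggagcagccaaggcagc
Ebi3: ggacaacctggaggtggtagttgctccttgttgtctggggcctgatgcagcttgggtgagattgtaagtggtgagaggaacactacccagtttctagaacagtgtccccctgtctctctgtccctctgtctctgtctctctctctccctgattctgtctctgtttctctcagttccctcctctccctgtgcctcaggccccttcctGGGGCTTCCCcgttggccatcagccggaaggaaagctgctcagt

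The TATA-box matches of Il12b lay 30 to 25 and 194 to 189 bases before the start, and 22.6% of 32851 promoter windows of this length held such a match. The NF-kB match of Ebi3 lay 44 to 35 bases before its start, and 3.9% of the windows held a match to that consensus. The motifs were chosen with these sequences in view and are a description of the letters, not of binding. The gene Gm16712 overlaps Ebi3 on the other strand, and no source used here says whether counting used strand, so the Ebi3 values may include reads of that gene.

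A minority of the mature migratory DC-like barcodes carried the Il12b RNA, and few of them carried most of it. An Il12b UMI was found in 22.5% (18.3 to 27.2) of 355 control barcodes and in 38.9% (35.2 to 42.8) of 650 IL4 barcodes. NK-like barcodes, a class that should lack the gene, carried it in 0.532% and 0.571%. Median depth was 13876 and 11429 UMIs in the mature migratory DC-like class and 6808 and 6319 in the NK-like class. After every barcode was thinned to 1000 UMIs the shares were 9.35% and 19.8%, against 0 barcodes in the NK-like class of either library. The share was higher in the IL4 library, thinned or not, although the median depth of the class was lower there.

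Barcodes with 10 or more Il12b UMIs numbered 32 (9.01%) of the control class and 110 (16.9%) of the IL4 class. The highest single barcode carried 220 UMIs in the control against 205 in the IL4 library. The 10% of barcodes with most Il12b held 91.7% and 76.3% of its UMIs in the class. Without the highest barcode of each library the levels were 271 and 558 CPM, a log2 ratio of 1.04. The ratio was positive in barcodes with Xist only, at 248 and 543 CPM, and in barcodes with Y-linked UMIs only, at 232 and 1123 CPM, with log2 ratios of 1.13 and 2.27.

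**Figure D2:**
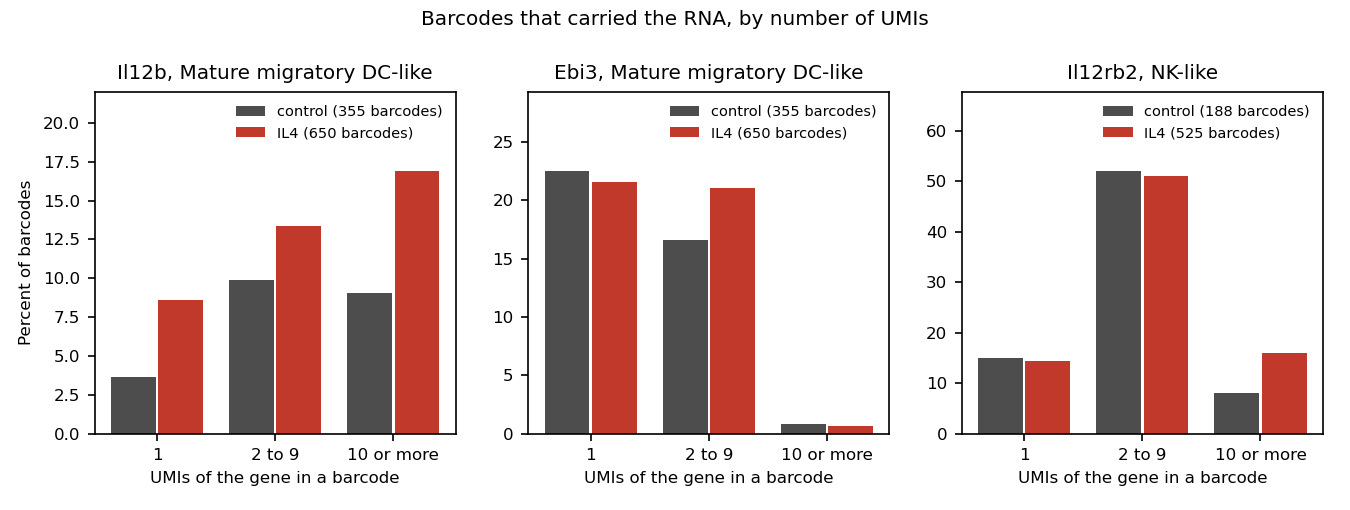
Percent of barcodes with 1, 2 to 9, and 10 or more UMIs of Il12b and Ebi3 in the mature migratory DC-like class and of Il12rb2 in the NK-like class; each panel has its own axis, bars start at 0 and no intervals are drawn. For Il12b the IL4 library is higher in each bin, with 16.9% against 9.01% of barcodes at 10 or more UMIs.

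The conventional DC type 1-like class ranked next for Il12b, and there the IL4 library was the lower of the pair. Its levels were 97.9 CPM (89.6 to 107, 515 UMIs) in the control and 64.1 CPM (58.6 to 70.0, 497 UMIs) in the IL4 library, and the intervals did not overlap. The log2 ratio was −0.60 and the fold 0.655 (0.578 to 0.742). The shares of barcodes with an Il12b UMI were nearly the same, 7.85% of 242 and 7.98% of 426, or 2.49% and 2.35% thinned. Only 7 control and 11 IL4 barcodes carried 10 or more UMIs, and 1 barcode in each library carried 187 and 160 of them. Without that barcode the ratio was −0.51, short of the 1.5-fold limit. The direction was not shared by both kinds of barcode. Xist-only barcodes had 45.4 and 69.2 CPM, Y-only barcodes 214 and 44.0 CPM, the latter from 52 and 30 barcodes. The 12 mature migratory DC markers, 1 of them at 0 in each library, summed to 286 and 502 CPM in this class, and their part in the result was not tested.

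In the conventional DC type 2-like class Il12b was near its floor in the control library and above it in the IL4 library. There were 11 UMIs in 967 control barcodes, 0.822 CPM (0.410 to 1.47), and 380 UMIs in 1463 IL4 barcodes, 22.1 CPM (19.95 to 24.5). The intervals did not overlap, with a log2 ratio of 3.67 and a fold of 26.9 (14.9 to 54.4). The RNA came from few barcodes, 1.03% of the control and 2.80% of the IL4 class (0.208% and 0.755% thinned), and the highest IL4 barcode held 122 of the 380 UMIs. Without the highest barcodes the levels were 0.673 and 15.04 CPM, a log2 ratio of 3.26. Xist-only barcodes gave 3.57 and Y-only barcodes 3.19, the latter from 3 and 27 UMIs. The mature migratory DC markers, none at 0, summed to 943 and 1090 CPM here, and their part in the Il12b values was not tested.

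Macrophage-like barcodes carried little Il12b, with 2.06 CPM (1.40 to 2.93, 31 UMIs) in the control and 7.76 CPM (6.53 to 9.15, 141 UMIs) in the IL4 library. The IL4 value was higher and the intervals did not overlap, with a log2 ratio of 1.52. An Il12b UMI was found in 0.635% and 1.53% of the barcodes (0.212% and 0.690% thinned, at 9966 and 9064 UMIs). In the control this was close to the share of 0.532% in the filtered NK-like class, which is 1 of 188 barcodes. A single control barcode held 16 of the 31 UMIs and a single IL4 barcode 29 of the 141. The ratio changed sign in 2 alternatives: it was −0.36 in Y-only barcodes (17 and 5 UMIs) and −0.14 when barcodes with more than 5% mitochondrial UMIs were left out. The mature migratory DC markers summed to 416 and 393 CPM in this class. In the macrophage-like cluster led by Cbr2, Ccl8 and Folr2 the levels were 0.883 and 1.01 CPM, and in the cluster led by Ms4a7, Cxcl9 and C1qa 3.04 and 9.08 CPM. The cluster led by Cxcl1, Il1a and Abca1, which met no naming rule, had 1.51 and 9.13 CPM of Il12b, and 71 of its 155 IL4 UMIs lay in 1 barcode. Its Y-only barcodes held 2 and 1 Il12b UMIs. Monocyte-like barcodes held 4 and 11 Il12b UMIs, and plasmacytoid DC-like barcodes held 0 in both libraries.

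**Figure D3:**
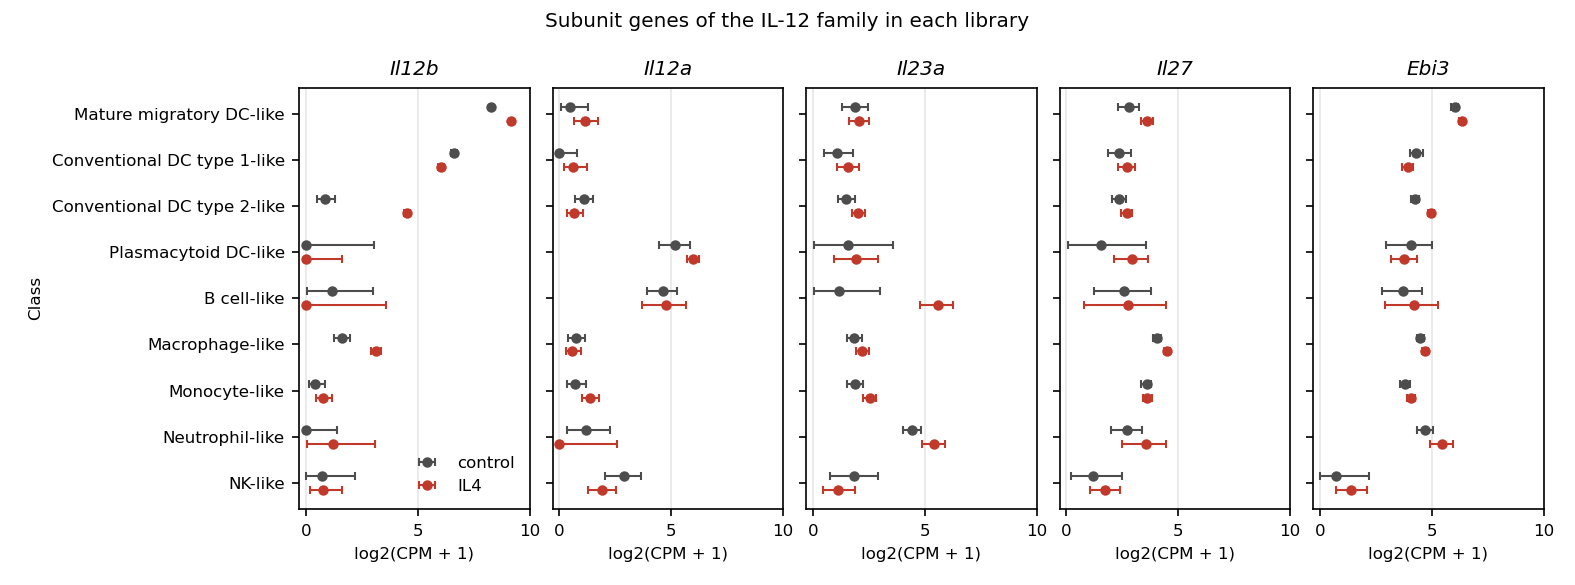
CPM of the 5 subunit genes of the IL-12 family in 9 classes, as log2(CPM + 1) with 95% counting intervals; grey is the control and red the IL4 library. Il12b and Ebi3 are highest in the mature migratory DC-like class and Il12a in the plasmacytoid DC-like class, where Il12b is at 0 UMIs.

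Il12a, whose product is the partner of the Il12b product in IL-12, was highest in other classes than Il12b. It lies at chr3:68690644-68698547 on the plus strand. The plasmacytoid DC-like class was highest, with 35.3 CPM (20.9 to 55.7, 18 UMIs) in the control and 61.9 CPM (50.9 to 74.4, 112 UMIs) in the IL4 library. The intervals overlapped, and the fold was 1.75 (1.06 to 3.07). B cell-like barcodes followed with 23.5 CPM (14.1 to 36.7, 19 UMIs) and 26.3 CPM (12.0 to 49.9, 9 UMIs), and they did not overlap with the plasmacytoid DC-like class in the IL4 library but did in the control. That cluster summed to 570 CPM of plasma-cell markers in the control against 12050 CPM in the IL4 library, so its make-up differed between the libraries. An Il12a UMI was found in 28.9% of 38 and 38.5% of 130 plasmacytoid DC-like barcodes at median depths of 11406.5 and 11324 UMIs, against 3.72% and 1.90% of NK-like barcodes. Thinned to 1000 UMIs, the plasmacytoid DC-like shares were 5.26% and 6.92%.

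In the mature migratory DC-like class, where Il12b peaked, Il12a was at 2 UMIs (0.391 CPM, 0.0473 to 1.41) in the control and 10 UMIs (1.24 CPM, 0.594 to 2.28) in the IL4 library. Il12a and Il12b were found together in 0 of 80 Il12b-positive control barcodes and in 2 of 253 IL4 barcodes of this class. The conventional DC type 1-like class held 0 and 4 Il12a UMIs. The pair of IL-12 subunit RNAs was thus rarely seen in 1 barcode at this depth, which does not show that either RNA was absent. The RefSeq windows of Il12a held no match to the 6 motifs searched.

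Il23a, which encodes the IL-23-specific subunit, was highest in the neutrophil-like class by the mean of both libraries. Its locus is chr10:128296139-128298752 on the minus strand. Neutrophil-like barcodes had 20.5 CPM (15.1 to 27.2, 48 UMIs) in the control and 41.4 CPM (28.1 to 58.8, 31 UMIs) in the IL4 library, with the IL4 value higher and no overlap. The highest barcodes held 7 of the 48 and 6 of the 31 UMIs, and without them the levels were 17.6 and 33.5 CPM, a log2 ratio of 0.89. An Il23a UMI was found in 5.07% (3.17 to 7.65) and 9.58% (5.58 to 15.1) of neutrophil-like barcodes, and these intervals overlapped. Their median depth was 3104 and 2560 UMIs. Of NK-like barcodes, 1.06% and 0.762% carried an Il23a UMI. Thinned to 1000 UMIs, the neutrophil-like shares were 2.29% and 3.85%.

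The cluster led by Gm31522 had 9.20 CPM (9 UMIs) and 29.6 CPM (138 UMIs) of Il23a, overlapping with the neutrophil-like class in both libraries. The cluster led by Cxcl1, Il1a and Abca1 had 8.21 CPM (6.08 to 10.9) and 17.4 CPM (15.4 to 19.5). In the latter the log2 ratio was 1.0, and 1.15 without the highest barcode of each library. B cell-like barcodes of the IL4 library had 16 Il23a UMIs (46.8 CPM), all in 1 barcode. The mature migratory DC-like class, rich in the partner gene Il12b, held 14 and 26 Il23a UMIs, 2.74 and 3.22 CPM with overlapping intervals. Il12b and Il23a were found together in 4 and 3 barcodes there.

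Il27, which encodes the IL-27-specific subunit, was highest in the macrophage-like class. Its locus is chr7:126589010-126594941 on the minus strand, where it overlaps Apobr on the other strand, so without a stated strand setting its values are uncertain. Macrophage-like levels were 15.8 CPM (13.8 to 17.9, 237 UMIs) in the control and 21.9 CPM (19.8 to 24.1, 397 UMIs) in the IL4 library. The IL4 library was higher without overlap, yet the log2 ratio of 0.45 stayed under the 1.5-fold limit. This ratio was 0.80 in Xist-only barcodes, past the limit, and −0.02 in Y-only barcodes. The cluster led by Gm31522, at 11.2 and 18.0 CPM, overlapped with this class in both libraries. The clusters within the class differed from each other more than the libraries did: the cluster led by Ms4a7, Cxcl9 and C1qa had 23.0 and 24.1 CPM, and the cluster led by Cbr2, Ccl8 and Folr2 had 7.06 and 10.4 CPM. The former made up 742 of 1417 control barcodes and 1568 of 1893 IL4 barcodes. An Il27 UMI was found in 13.1% and 15.2% of macrophage-like barcodes (median depth 9966 and 9064 UMIs), in 1.77% and 2.18% after thinning, and in 1.06% and 1.71% of NK-like barcodes, 0 after thinning.

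In the mature migratory DC-like class Il27 was at 5.86 CPM (3.96 to 8.37, 30 UMIs) in the control and 11.3 CPM (9.08 to 13.8, 91 UMIs) in the IL4 library. The intervals did not overlap and the log2 ratio was 0.84. The 11 macrophage markers summed to 1394 and 1477 CPM in this class, and their part in it was not tested. Xist-only barcodes carried 3 and 59 Il27 UMIs, with a ratio of 2.30, and Y-only barcodes 14 and 13 UMIs, with a ratio of 0.46 that did not reach the 1.5-fold limit.

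Ebi3, the partner of Il27 in IL-27, had its highest level in the mature migratory DC-like class. Levels were 64.9 CPM (58.1 to 72.3, 332 UMIs) in the control and 79.9 CPM (73.9 to 86.3, 645 UMIs) in the IL4 library. The IL4 value was higher without overlap, with a log2 ratio of 0.30, under the 1.5-fold limit. Barcodes with Xist only gave 0.61 and those with Y-linked UMIs only −0.53. An Ebi3 UMI was found in 40.0% and 43.2% of the barcodes and in 0.532% and 1.33% of NK-like barcodes. Thinned to 1000 UMIs, the mature migratory DC-like shares were 7.65% and 5.72%, the reverse order.

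Below this class came the neutrophil-like class with 25.2 and 42.7 CPM of Ebi3 and the cluster led by Gm31522 with 25.6 and 39.2 CPM, whose intervals overlapped each other in both libraries. The conventional DC type 2-like class had 18.2 CPM (15.9 to 20.6, 243 UMIs) and 30.5 CPM (27.9 to 33.2, 523 UMIs), a log2 ratio of 0.72 without overlap. Ebi3 and Il27 were found together in 41 control and 71 IL4 macrophage-like barcodes. There, 22.2% and 24.7% of Il27-positive barcodes carried Ebi3, against 17.1% and 17.9% of the other barcodes. In the mature migratory DC-like class 50% and 45.5% of Il12b-positive barcodes carried Ebi3, against 37.1% and 41.8% of the others. Il12b-positive barcodes were also deeper, with a median of 15353 UMIs against 13353 in the control and 11789 against 11144 in the IL4 library. Il27-positive macrophage-like barcodes were deeper too, at 10767 against 9695.5 and 10109.5 against 8872 UMIs. The part of depth in these shares was not tested.

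Il6, the namesake ligand of its family, was spread over myeloid classes. The gene lies at chr5:30013114-30019981 on the plus strand, and its promoter window, chr5:30012864-30013113, is shown because it held matches to 3 of the 6 motifs searched. Capitals mark, in order, an AP-1 match (TGANTCA), a C/EBP match (TTGCNNAA, on the other strand) and an NF-kB consensus match.
Il6: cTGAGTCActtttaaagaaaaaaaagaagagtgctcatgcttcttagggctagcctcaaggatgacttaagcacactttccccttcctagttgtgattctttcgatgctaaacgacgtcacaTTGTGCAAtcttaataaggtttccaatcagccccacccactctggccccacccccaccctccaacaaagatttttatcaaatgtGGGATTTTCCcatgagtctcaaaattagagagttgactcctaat

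The NF-kB match of Il6 lay 44 to 35 bases before the start, the C/EBP match 128 to 121 and the AP-1 match 249 to 243. Of the 32851 windows, 9.56% held a C/EBP match and 6.75% an AP-1 match. By the mean of both libraries Il6 was highest in the cluster led by Retnla, Lyz1 and Ear2, with 31.9 CPM (24.7 to 40.5, 67 UMIs) in the control and 65.3 CPM (56.1 to 75.5, 182 UMIs) in the IL4 library. It was higher in the IL4 library without overlap, and the fold was 2.05 (1.54 to 2.75). An Il6 UMI was found in 19.9% of 156 and 33.1% of 242 barcodes (median depth 12360 and 11355 UMIs), against 0.532% and 1.90% of NK-like barcodes. Thinned, the shares were 5.13% and 7.05%, against 0 and 0.191% in the NK-like class.

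The mature migratory DC-like class ranked next for Il6, overlapping with that cluster in the control, with 32.4 CPM (27.7 to 37.8, 166 UMIs) and 27.0 CPM (23.5 to 30.9, 218 UMIs), which overlapped. A single control barcode held 35 of those UMIs, and without the highest barcodes both libraries stood near 26, at 25.8 and 25.7 CPM. In the IL4 library 21.3% of Il12b-positive barcodes of this class carried Il6, against 10.3% of the others, and in the control 16.3% against 12.4%. The cluster led by Cxcl1, Il1a and Abca1 had 29.2 and 27.1 CPM of Il6, also with overlap. Monocyte-like barcodes had 13.8 and 15.1 CPM and macrophage-like barcodes 11.2 and 12.1 CPM, with overlap in both. Within the macrophage-like class the cluster led by Cbr2, Ccl8 and Folr2 differed, at 11.2 CPM (76 UMIs) and 4.04 CPM (12 UMIs). In neutrophil-like barcodes 20 of 41 control and 15 of 23 IL4 UMIs lay in 1 barcode each.

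Osm was found in 73.3% of all kept control and 75.2% of all kept IL4 barcodes, and its level over them overlapped, 413 CPM (409 to 417) and 414 CPM (410 to 417). Oncostatin M is made mainly by myeloid cells and activated T cells. Its locus, chr11:4236420-4241026 on the plus strand, is 16530 bases before Lif. The cluster led by Cxcl1, Il1a and Abca1 was highest, with 949 CPM (924 to 974) in the control against 795 CPM (782 to 809) in the IL4 library, and the neutrophil-like class, at 895 and 748 CPM, overlapped with it in both. In both classes the IL4 value was lower, with log2 ratios of −0.25 and −0.26. In the neutrophil-like class the ratio was 0.12 in barcodes with Xist only.

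Monocyte-like barcodes followed with 668 and 641 CPM of Osm. Macrophage-like barcodes had 302 CPM (294 to 311) and 390 CPM (381 to 399), higher in the IL4 library without overlap and with a log2 ratio of 0.37. Within that class the ratio was 0.17 in the cluster led by Cbr2, Ccl8 and Folr2. In the cluster led by Ms4a7, Cxcl9 and C1qa it was 0.23. The class ratio was positive in 17 of 17 alternatives, from 0.07 in Y-only barcodes to 0.64. By the mean of both libraries, the lowest of the 18 ordered classes were CD8 T cell-like barcodes, at 86.9 and 76.7 CPM, and NK-like barcodes, at 77.0 and 102 CPM. Both classes were uneven. A CD8 T cell-like subcluster of 15 and 35 barcodes had 203 and 196 CPM, and one of 58 and 131 barcodes had 34.1 and 32.6 CPM. An NK-like subcluster of 14 and 43 barcodes had 290 and 360 CPM, and one of 174 and 482 barcodes had 47.8 and 58.8 CPM. B cell-like barcodes, chosen as a class that should lack Osm, carried a UMI in 43.0% and 40.0%, against 92.6% and 91.2% in the cluster led by Cxcl1, Il1a and Abca1. Median depths were 5578 and 4323 against 6637 and 6440 UMIs, and thinned shares 15.1% and 18.6% against 52.9% and 49.5%. Macrophage markers summed to 2095 and 1693 CPM in the B cell-like class, and whether Osm there came from RNA of other cells was not tested.

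Lif, whose product acts through its own receptor chain and that encoded by Il6st, peaked in the cluster led by Cxcl1, Il1a and Abca1 in the control. It lies at chr11:4257557-4272514 on the plus strand. In the cluster led by Cxcl1, Il1a and Abca1, Lif was at 52.5 CPM (46.8 to 58.6, 313 UMIs) in the control and 29.4 CPM (26.9 to 32.1, 499 UMIs) in the IL4 library. The IL4 value was lower without overlap, with a log2 ratio of −0.82, and −0.73 without the highest barcodes. The ratio was −1.15 in Xist-only barcodes and 0.18 in Y-only barcodes of this cluster. A Lif UMI was found in 14.96% and 12.4% of these barcodes (median depth 6637 and 6440 UMIs), and in 5.32% and 7.05% of NK-like barcodes, which therefore were no clean background for it. Thinned shares were 4.22% and 2.62% against 0.532% and 1.91%.

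Undivided T cell-like barcodes had 34.8 CPM (23.1 to 50.3, 28 UMIs) and 46.3 CPM (34.5 to 60.7, 52 UMIs) of Lif, with overlap between libraries. They ranked below the cluster led by Cxcl1, Il1a and Abca1 in the control, with overlap, and above it in the IL4 library, without. A single IL4 barcode held 12 of the 52 UMIs, and without the highest barcodes the levels were 27.7 and 36.0 CPM. In the IL4 library 29 of the 52 lay in 40 barcodes of a subcluster led by Il23r and Rora (96.8 CPM, 64.8 to 139). The subcluster led by Lef1 had 27.9 CPM (17.7 to 41.8) there, which overlapped with the cluster led by Cxcl1, Il1a and Abca1. Macrophage-like barcodes had 14.3 and 10.1 CPM of Lif, a log2 ratio of −0.45, and conventional DC type 2-like barcodes 14.2 and 10.0 CPM, a ratio of −0.46. Within the macrophage-like class the cluster led by Cbr2, Ccl8 and Folr2 had a Lif ratio of −0.76. The cluster led by Ms4a7, Cxcl9 and C1qa had −0.14, with a fold interval of 0.688 to 1.17. Monocyte-like barcodes had 17.1 and 16.4 CPM with overlap. The low-depth cluster led by Retnla, Cdk8 and Cebpb had 32.8 CPM (23.2 to 45.1, 38 UMIs) and 13.6 CPM (8.81 to 20.1, 25 UMIs), lower in the IL4 library without overlap.

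Il12rb2, the signalling chain of the IL-12 receptor, marked NK-like barcodes. The gene lies at chr6:67291318-67376188 on the minus strand and overlaps Serbp1 on the other strand, so its values are uncertain without a stated strand setting. Its promoter window, chr6:67376189-67376438 on the minus strand, is shown because the receptor signals through a STAT protein and the window held a match to the STAT motif TTCNNNGAA, in capitals.
Il12rb2: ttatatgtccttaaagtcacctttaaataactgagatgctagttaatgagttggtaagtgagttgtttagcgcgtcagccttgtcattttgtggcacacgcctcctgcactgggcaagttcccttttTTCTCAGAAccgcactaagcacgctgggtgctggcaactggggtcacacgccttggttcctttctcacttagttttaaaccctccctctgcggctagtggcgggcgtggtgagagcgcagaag

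The STAT match of Il12rb2 lay 123 to 115 bases before the start, and 7.02% of the 32851 windows held such a match. NK-like barcodes had 429 CPM (397 to 463, 674 UMIs) in the control against 582 CPM (559 to 605, 2509 UMIs) in the IL4 library. Again the IL4 library was higher without overlap, with a log2 ratio of 0.44, under the 1.5-fold limit. Both kinds of barcode gave a similar ratio, 0.47 with Xist only and 0.44 with Y-linked UMIs only. An Il12rb2 UMI was found in 75.0% of 188 and 81.3% of 525 NK-like barcodes (35.6% and 40.0% thinned), against 2.17% and 5.39% of neutrophil-like barcodes (0.763% and 1.28% thinned). Median depth was 6808 and 6319 UMIs against 3104 and 2560. Barcodes with 10 or more UMIs were 7.98% and 16.0% of the NK-like class.

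Undivided T cell-like barcodes had 209 CPM (178 to 243) and 231 CPM (204 to 261) of Il12rb2, which overlapped. CD8 T cell-like barcodes had 65.5 CPM (53.0 to 80.1, 95 UMIs in 73 barcodes) and 124 CPM (110 to 138, 306 UMIs in 169 barcodes), higher in the IL4 library without overlap. Their subcluster led by Gzmf and Gzmd, with 58 and 131 barcodes, had 88.25 and 131.4 CPM. The subcluster led by Gzmb and Cd3g, with 15 and 35 barcodes, had 15.5 CPM (7 UMIs) and 85.7 CPM (55 UMIs). Among DCs, plasmacytoid DC-like barcodes had 60.7 and 70.7 CPM and mature migratory DC-like barcodes 43.8 and 49.4 CPM, with overlap in both. In the latter class 29.0% and 27.2% of barcodes carried a UMI. A single control barcode held 19 of the 31 Il12rb2 UMIs of the plasmacytoid DC-like class. Without the highest barcode of each library that class had 25.55 and 63.79 CPM, a log2 ratio of 1.29. The 12 NK markers summed to 9.80 CPM there in the control, with 9 at 0, and to 163.5 CPM in the IL4 library, with none at 0. T cell markers summed to 25.5 and 69.05 CPM. The part of NK and T cell RNA in these Il12rb2 values was not tested. Macrophage-like barcodes had 4.26 and 3.63 CPM. Over all kept barcodes Il12rb2 was at 27.4 and 49.8 CPM, while NK-like barcodes were 2.10% of the control and 3.82% of the IL4 library. Barcodes set apart because they mixed lymphocyte and myeloid RNA held 28.7% and 32.4% of all Il12rb2 UMIs.

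**Figure D4:**
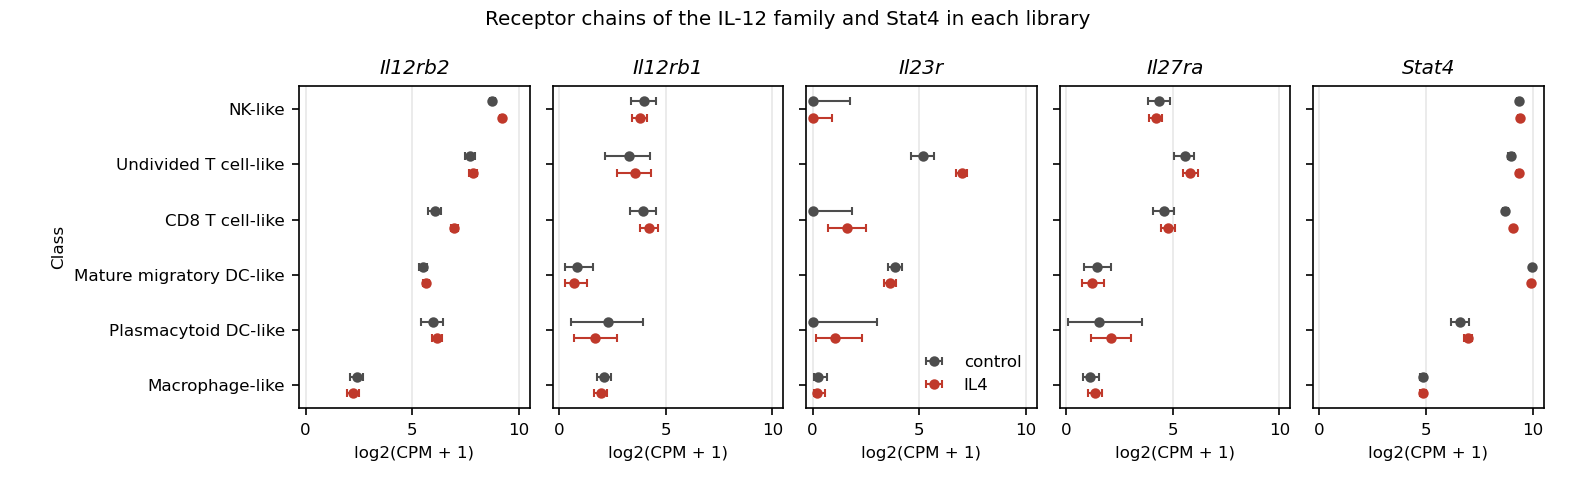
CPM of Il12rb2, of 3 related receptor chains and of Stat4 in 6 classes, as log2(CPM + 1) with 95% counting intervals; grey is the control and red the IL4 library. Il12rb2 is highest in the NK-like class, at 429 and 582 CPM, and lowest of the 6 in the macrophage-like class, at 4.26 and 3.63 CPM.

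The partner chain Il12rb1 was sparse, with 14.6 CPM (23 UMIs) and 12.8 CPM (55 UMIs) in NK-like barcodes. Stat4, which carries the IL-12 signal, was at 650 and 664 CPM in NK-like and at 992 and 950 CPM in mature migratory DC-like barcodes. Il23r, the IL-23-specific receptor chain, was at 0 UMIs in NK-like barcodes of both libraries and at 34.8 and 125 CPM in undivided T cell-like barcodes. Most of it came from a subcluster that Il23r, Rora, Cd163l1 and Zbtb16 led, with 26 UMIs in 18 control and 140 UMIs in 40 IL4 barcodes. In that subcluster Il12rb2 was at 60.4 CPM (31.2 to 106) and 36.7 CPM (18.3 to 65.7), with overlap, and in the subcluster led by Lef1 at 257 and 302 CPM. Il23r was also detected in mature migratory DC-like barcodes, at 13.5 CPM (69 UMIs) and 11.4 CPM (92 UMIs). Il27ra, the IL-27 receptor chain, was at 46.0 and 56.0 CPM in undivided T cell-like barcodes.

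Il6ra was highest in monocyte-like barcodes, with 156 CPM (149 to 163, 1952 UMIs) in the control against 145 CPM (139 to 151, 2257 UMIs) in the IL4 library. The gene lies at chr3:89864059-89913196 on the minus strand and overlaps Gm42809 on the other strand, with the same uncertainty on strand, and its promoter window held no match to the 6 motifs. The monocyte-like intervals overlapped narrowly, with a log2 ratio of −0.10. An Il6ra UMI was found in 67.4% and 61.6% of monocyte-like barcodes (15.5% and 13.5% thinned), against 5.32% and 6.29% of NK-like barcodes (0 and 1.15% thinned). Median depth was 8971 and 7860 against 6808 and 6319 UMIs.

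Macrophage-like barcodes had 122 CPM (116 to 128) and 92.6 CPM (88.2 to 97.1) of Il6ra, lower in the IL4 library without overlap. The log2 ratio was −0.39, short of the 1.5-fold limit, and it was negative in 17 of 17 alternatives, from −0.52 to −0.26. Both clusters within the class had a ratio of −0.32. Mature migratory DC-like barcodes had 29.7 and 34.1 CPM and NK-like barcodes 6.999 and 10.9 CPM, with overlap in both. Il6st, the shared signalling chain, was at 87.0 and 71.2 CPM in undivided T cell-like and at 59.4 and 53.0 CPM in mature migratory DC-like barcodes. Osmr, the oncostatin M receptor chain, had at most 2 UMIs in each class and library.

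A gene was counted as higher or lower in the IL4 library when CPM + 1 differed at least 1.5-fold and the class held 20 or more of its UMIs over both libraries. In the mature migratory DC-like class 2 of 9 tested members, Il12b and Il27, were higher, where 3.67% of all 11342 tested genes were, and 0 were lower, where 5.21% were. In the macrophage-like class 1 of 9, Il12b, was higher (2.09% of all genes) and 0 were lower (7.11%). In the conventional DC type 2-like class 2 of 10, Il12b and Ebi3, were higher (1.87% of all genes) and 0 lower (2.78%). The conventional DC type 1-like class had 0 of 9 higher (4.25%) and 1 lower, Il12b (6.05%).

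In monocyte-like barcodes 2 of 9 members were higher, Il12a with 8 and 25 UMIs and Il23a with 34 and 75, where 1.66% of all genes were, and 0 were lower, where 2.53% were. A single IL4 barcode held 16 of those 75 Il23a UMIs, and without the highest barcode of each library the log2 ratio was 0.53, under the limit. In the cluster led by Cxcl1, Il1a and Abca1 Il12b and Il23a were 2 of 10 higher (3.33%) and Lif the 1 lower (3.95%). In NK-like barcodes 2 of 6 were higher (6.2%), namely Il6, with 1 and 20 UMIs, a fold of 7.29 (1.17 to 302), and Lif, with 15 and 71 UMIs. The 1 lower there (6.76%) was Il12a, with 10 and 12 UMIs and a fold interval of 0.173 to 1.13. The 11 macrophage markers summed to 286 and 316 CPM in the NK-like class, and their part in these values was not tested. The median log2 ratio of the tested members was 0.18 in the mature migratory DC-like, 0.22 in the macrophage-like and 0.51 in the NK-like class, against −0.01, −0.13 and −0.03 for all tested genes.

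More members passed the limit in the cluster led by Gm31522 and in the neutrophil-like class. In each, 5 of 8 tested members were higher, namely Il6, Il23a, Il27, Ebi3 and Il12rb2, where 8.58% and 7.52% of all tested genes were. Lif was the 1 lower in each, where 9.81% and 12.8% of all genes were. The median log2 ratio of the tested members was 0.62 in the cluster led by Gm31522 and 0.69 in the neutrophil-like class, against −0.05 and −0.03 for all tested genes. In the cluster led by Gm31522 (130 and 682 barcodes) the intervals of Il23a and of Lif did not overlap between libraries, Lif being at 34.8 CPM (34 UMIs) and 19.1 CPM (89 UMIs), and those of the other 4 overlapped. In the neutrophil-like class (414 and 167 barcodes) the intervals of Il23a did not overlap, and those of the other 5 did. There the Il6 ratio of 0.77 was 0.23 without the highest barcode of each library, Il27 rested on 13 and 8 UMIs, and Lif on 31 and 4.

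**Figure D5:**
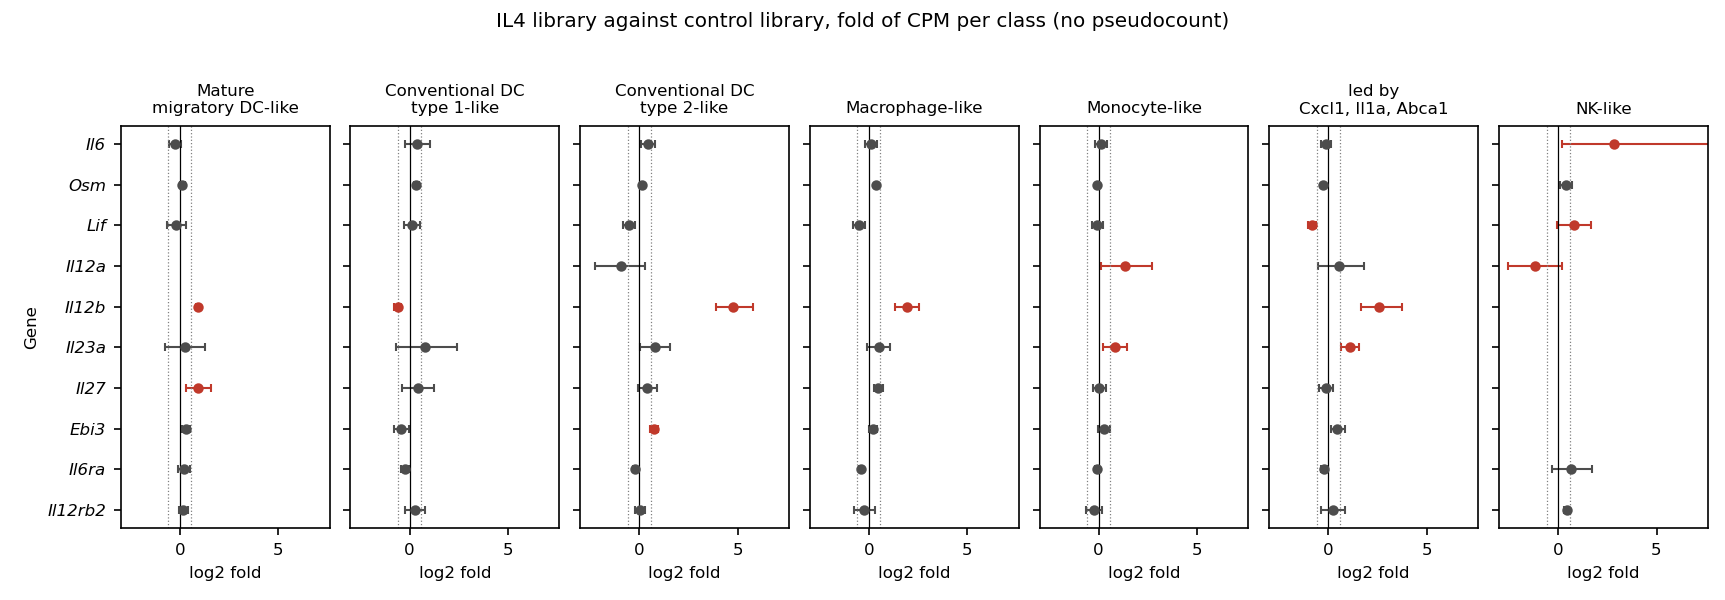
IL4 over control fold of CPM, on a log2 axis and without a pseudocount, for the members with 20 or more UMIs in 7 classes; bars are 95% counting intervals, dotted lines mark 1.5-fold and red marks members past 1.5-fold on CPM + 1. The upper bound of Il6 in the NK-like class, 302-fold, runs off the axis. Il12b lies to the right in 4 classes and to the left in the conventional DC type 1-like class.

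Of 45 other genes of these pathways (ligands, receptor chains, sheddases of the IL-6 receptor, kinases and STATs, feedback inhibitors, STAT3 targets, lymphocyte effector genes and factors upstream of IL-12), 33 were tested in macrophage-like barcodes. Among them 4 were higher and 2 lower in the IL4 library, where 2.09% and 7.11% of all genes were, and the median log2 ratio was 0.15. The 2 lower are near the share of all genes. The feedback inhibitor gene Socs3 was at 302 and 465 CPM, a ratio of 0.62. Jak2, the kinase that couples several of these receptors, was at 78.4 and 121 CPM, also 0.62. The IL-6 family ligand Clcf1 was at 4.26 and 8.97 CPM, a ratio of 0.92, and Ifng at 2.66 and 6.11 CPM, a ratio of 0.96. Ifng stood at 654 and 635 CPM in NK-like barcodes, and the part of free RNA in the macrophage-like value was not tested. The lower genes were Lifr, the receptor chain of leukaemia inhibitory factor, at 67.7 and 38.2 CPM with a ratio of −0.81, and Il31ra, with 25 and 14 UMIs and a ratio of −0.59. Clcf1 and Ifng were also higher past 1.5-fold in the monocyte-like and conventional DC type 2-like classes and the cluster led by Cxcl1, Il1a and Abca1. Socs3 and Ifng were so in the conventional DC type 1-like class. Clcf1 was lower past 1.5-fold in B cell-like and Ifng in regulatory T cell-like barcodes.

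In mature migratory DC-like barcodes 33 of the 45 were tested, with 1 higher, 1 lower and a median log2 ratio of 0.07, near the shares of 3.67% and 5.21% of all genes. The higher gene was the STAT3 target Cebpd, at 16.0 and 28.3 CPM with a ratio of 0.78, and the lower was Il31ra, at 4.69 and 1.36 CPM with a ratio of −1.27. The 6 factors upstream of IL-12 genes, among them Irf8, Batf3, Rel and Cd40, were tested there and stayed within 1.5-fold. In NK-like barcodes 32 were tested, with 2 higher, 2 lower and a median of −0.07, near the shares of 6.2% and 6.76% of all genes, so nothing is read from these counts. Cish, a feedback inhibitor gene, was at 29.9 and 50.6 CPM (0.74), and Cd40 had 6 and 30 UMIs (0.72). Il6st had 26 and 43 UMIs (−0.68) and Batf3 10 and 16 UMIs (−0.64). Ifng, the best known product of IL-12 signalling in NK cells, had a ratio of −0.04 in that class.

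Across 16 classes and clusters with at least 50 barcodes in both libraries, the genes whose log2(CPM + 1) pattern was most like that of each member were named from 11188 genes. These correlations describe classes that share libraries and depth, and they carry no test. Il12b was most like Eml6 (Pearson r = 0.908), Bcl2l14 (0.896) and Stbd1 (0.876), and Ebi3 was most like Marcks (0.963), Atp6v0a1 (0.953) and Nampt (0.945). Il12rb2 was most like Rnf43 (0.985), Ppm1l (0.978) and Rundc3b (0.956). Osm was most like Cd14 (0.981), Ninj1 (0.975) and Tgm2 (0.969), and the genes given for Il27 are Pou2f2 (0.960) and Acp2 (0.945). Il6ra was most like Ralb (0.959), Ckap4 (0.953) and Lrrc25 (0.952).

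The pattern of Il6 was most like Pik3r6 (0.919), Atrnl1 (0.903) and Cdc42bpg (0.898), and that of Il23a most like F3 (0.918), Proscos (0.910) and Cdc42bpg (0.907). For Lif the highest values were lower, with Armh3 at 0.797, Tulp4 at 0.793 and Itpkb at 0.789. For Il12a they were Adgrl4 at 0.812, Sbsn at 0.777 and Dixdc1 at 0.776, over classes that left out the plasmacytoid DC-like and B cell-like ones, where Il12a was highest. No promoter window was at hand for Osm, Il23a and Il27, and the windows of Lif, Il12a and Il6ra were searched but are not printed. The Lif window held an AP-1 match 228 to 222 bases before its start.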

How the data were processed

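Both libraries were deposited as raw UMI counts per gene and barcode; per the submitters' processing notes, the authors used Cell Ranger 7.2.0 with mm10. The members and gene lists were chosen with earlier results of these data known. Barcodes under 500 UMIs, under 250 genes or over 10% mitochondrial UMIs were left out. Python 3.11.15 and scanpy 1.11.5 clustered them (2000 variable genes without the members and related genes, 30 principal components, 15 neighbours, Leiden resolution 1). T and NK clusters were reclustered at 0.5. Barcodes of these T and NK clusters with more than 20 UMIs of 8 myeloid genes per 10000 were set apart. B cell-like barcodes were not filtered in this way. A cluster took the name of a marker list with at least 3 raised markers, 2 more than the next list, and 1 among its 10 leading genes; a raised marker had at least 10 CPM. The CPM and leading-gene conditions were set after the clusters were seen, so differences from the study's own annotation may come from rebuilt names. No doublet caller was run; an alternative left out barcodes over 2 times the class median UMIs.

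UMIs were summed per class and library. Intervals are exact Poisson (CPM), exact conditional binomial (fold) and Clopper-Pearson (shares). The summing and calling step was checked on simulated counts. Every one of the 10 members is named. Related genes past 1.5-fold are named in full only for the macrophage-like, mature migratory DC-like and NK-like classes. The 3 most similar genes per member were named by rule. For Il27, 1 of these is not reported here. Coordinates are from GENCODE vM21 and promoter windows from RefSeq GRCm38.p6. Alternatives covered clustering, filters, scaling, pseudocount, UMI minimum, Xist-only and Y-only barcodes (4 Y-linked genes) and single-barcode gating.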

Additional observations from a re-analysis of the deposited data

Results flagged for a closer look

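Il12b in the conventional DC type 1-like class moved in opposite directions in the 2 kinds of barcode: the log2 ratio of the IL4 over the control library was 0.60 in Xist-only barcodes and −2.26 in Y-only barcodes. The latter rest on 231 UMIs in 52 control and 21 UMIs in 30 IL4 barcodes. Il12b also moved in opposite directions in the conventional DC type 2-like class, with a log2 ratio of 3.67, and in the conventional DC type 1-like class, with −0.60. With 1 library per group neither difference was tested.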

How the results depend on the processing

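In the mature migratory DC-like class the log2 ratio of Il12b was positive and past 1.5-fold in 15 of 15 alternatives, from 0.89 to 2.27, and that of Il27 was positive in 15, from 0.46 to 2.30. The count of 2 higher members became 3 in Xist-only barcodes, with Ebi3, and 1 in Y-only barcodes, where 1 (Il6) was lower instead of 0. In the macrophage-like class the count of 1 higher member became 2 at resolution 0.5, at resolution 2, with 15 principal components, with at least 2000 UMIs per barcode, in Xist-only barcodes and with the cluster led by Cxcl1, Il1a and Abca1 added (an alternative chosen after seeing the data). It became 3 with variable genes chosen within each library and with barcodes gated alone, and 0 with at most 5% mitochondrial UMIs. The count of 0 lower members there became 1 with members among the variable genes and in Y-only barcodes and 2 with at most 5% mitochondrial UMIs, which left 537 and 511 of 1417 and 1893 barcodes. Il12b reversed in that class in these last 2 settings, to −0.36 in Y-only barcodes and −0.14 with at most 5% mitochondrial UMIs. The cause was not tested. Leaving out the barcode with most UMIs of each member, also chosen after seeing the data, changed neither count. Weighting control clusters as in the IL4 library was not run for the mature migratory DC-like class, which was 1 cluster. No paired analysis was possible because each group has 1 library. Outside the classes where they peaked, many members rest on few UMIs, which limits their ratios.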
